A study of Mus musculus with 17 samples.

Results

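The nuclear genes of the mitochondrial respiratory chain were followed in H3K27ac HiChIP loops of differentiating mouse cells. Members were the protein-coding nuclear genes of the mm9 annotation whose symbol starts with Nduf, Uqcr, Atp5, Sdha, Sdhb, Sdhc or Sdhd, or with Cox4 to Cox8. This rule found 94 gene entries with 93 different symbols among 22367 protein-coding nuclear genes. The additional entry is Ndufb8, which has 2 identifiers in the annotation and the same counts under each. By complex, 37 entries belonged to complex I, 4 to complex II, 8 to complex III, 21 to complex IV and 18 to complex V, and 6 were assembly factors. A few names match the rule without being subunits: Cox4nb, which shares its start region and its counts with Cox4i1, and Atp5sl, Atp5s and Atp5l-ps1.

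HiChIP combines in situ chromatin contact capture with immunoprecipitation, here of histone H3 acetylated at lysine 27 (H3K27ac), a mark of active promoters and enhancers. All 17 libraries came from embryoid bodies (EBs) that were made by hanging drop from the R1 mouse embryonic stem cell line and kept in retinoic acid (RA, 0.5 µM) for 4 days. The 12 bulk libraries were made from unsorted EB cells, and the 5 double positive libraries, titled cluster2, from cells sorted for the surface proteins EpCAM and CD38 in independent sorts at the same stage. The bulk cells carried the same genotype and treatment and contain double positive cells as well, so the contrast is of a sorted fraction with the mixture that holds it. Nothing in the labels pairs a bulk library with a double positive one, and the spread between libraries of one group may be technical in part.

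The respiratory chain sits in the inner mitochondrial membrane. Complex I (NADH dehydrogenase) and complex II (succinate dehydrogenase) pass electrons through ubiquinone to complex III, cytochrome c carries them to complex IV (cytochrome c oxidase), and complex V (ATP synthase) uses the resulting proton gradient to make ATP. Most subunits are encoded in the nucleus and their genes are active in nearly all tissues, while a few complex IV subunits have isoforms used in muscle, testis or lung. Their promoters are known for binding sites of NRF1, of the ETS factor GABPA, of YY1 and of the estrogen-related receptors.

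A loop is a pair of anchors, stretches of the genome with H3K27ac signal, joined by at least 1 read pair. Every loop with an anchor overlapping the 5 kb on either side of a gene's transcription start site (TSS) was assigned to that gene, and its read pairs were summed. Values are read pairs per 1000000 (CPM) after TMM scaling, which multiplies each library's total by a factor estimated from the genes themselves. Between 65178 and 241202 read pairs per bulk library and between 50508 and 118179 per double positive library lay in loops. The depth at a single gene was small: a tested member had a median of 55 bulk and 47 double positive read pairs over all libraries of the group. Read pairs from a window that holds the starts of several genes cannot be assigned to one of them, and 41 of the 94 members (43.6%) had another start within 5 kb, against 18.7% of all genes. In either group, fewer cells with a contact and a weaker contact per cell cannot be told apart.

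The promoter sequences of 3 named members show the regulatory sites in question, in stretches that an anchor covers in both groups. The RefSeq table of GRCm38.p6 holds windows from 250 bases before to 50 bases after a start, and 76 of the 93 symbols matched, with 82 windows. The printed stretches end at the base before the annotated start and were found unchanged in mm9. Ndufaf4, an assembly factor of complex I, and Ndufa11, an accessory subunit of complex I, each hold GCGCATGC, the core of the NRF1 site. It is read once on each strand, and the overlapping matches together are the letters in capitals. Uqcr11, a small subunit of complex III, holds CCGGAAGT, a site of ETS factors such as GABPA, also in capitals. The windows of Uqcr11 and Ndufaf4 each hold a further NRF1 core match near the RefSeq start, outside the printed stretch. The stretches lie at chr4:24825110-24825229 on the plus strand, chr17:56857065-56857184 on the plus strand and chr10:79869576-79869686 on the minus strand.
Ndufaf4: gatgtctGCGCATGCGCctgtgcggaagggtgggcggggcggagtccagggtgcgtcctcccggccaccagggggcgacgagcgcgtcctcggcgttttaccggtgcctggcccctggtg
Ndufa11: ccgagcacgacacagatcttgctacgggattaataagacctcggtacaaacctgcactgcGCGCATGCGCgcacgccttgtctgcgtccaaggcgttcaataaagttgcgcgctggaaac
Uqcr11: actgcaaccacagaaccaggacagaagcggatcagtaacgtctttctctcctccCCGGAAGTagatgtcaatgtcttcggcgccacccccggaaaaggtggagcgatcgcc

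These 3 genes differed in their calls. Ndufaf4 was among the members with fewer read pairs in double positive cells, Ndufa11 among those with more, and Uqcr11 did not pass the test. Over all members with a window, on both strands, the NRF1 core GCGCATGC was found in 11 of 82 windows (13.4%), against 2.71% of the 32851 windows of all genes. The YY1 site AAGATGGCG was found in 9 windows of 8 members (11%), against 1.40%. The ETS site CCGGAAGT stood in 5 windows (6.10%, against 3.89%), and the estrogen-related receptor site TCAAGGTCA in 2, those of Atp5g3 and Sdhd (2.44%, against 0.423%). None of these letter strings contains another of them. A match is a string of letters and not a measured binding site.

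The bulk contact map reached nearly every member, whereas the double positive map reached fewer. In bulk, 93 of 94 members had an anchor in the window, the exception being Atp5l-ps1, and 19085 of all 22367 genes did (85.3%). In double positive libraries 78 did (83.0%), against 11096 of all genes (49.6%). The 2 maps differ in the number of anchors: overlapping anchors of all libraries were joined into 216081, of which bulk loops used 216073 and double positive loops 15082, and 15074 were used by both (shared anchors). The share of a library's read pairs that touched a member was 0.351% ± 0.0583 (SD, n = 12) in bulk and 1.51% ± 0.0594 (SD, n = 5) in double positive libraries. The groups did not overlap, with 0.441% as the highest bulk and 1.44% as the lowest double positive value. The share at all protein-coding genes moved in the same direction, from 39.0% ± 4.09 to 92.0% ± 0.265. On shared anchors alone the bulk share at members was 1.31% ± 0.0885, with no overlap between 1.43% and 1.44%. The share at all protein-coding genes on shared anchors was 82.7% ± 0.907 in bulk, at most 84.3%, and also lay below every double positive library, of which the lowest had 91.6%.

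The question the contrast poses is which contacts at these genes are stronger or weaker in the double positive fraction than in the whole EB population. A call is an adjusted p under 0.05 by edgeR's quasi-likelihood test with Benjamini-Hochberg adjustment over all genes that had 20 or more read pairs in all and were seen in 5 or more libraries. Of the 85 members tested, 17 rose, 20 fell and 48 were not called. Of all 13109 genes tested, 19.7% rose and 37.5% fell. The median log2 fold change (double positive over bulk) of the members was 0.11, and that of all genes was -0.34. Of the members tested 8 (9.41%) had no double positive read pair and passed the filter through bulk alone, beside 17.5% of all genes tested. A count of 0 allows for up to 3 read pairs over the group. At that value too these 8 lie below the median, so the median of 0.11 cannot depend on where they are placed. The remaining 77 ranged from -4.38 for Ndufaf4 to 1.67 for Ndufc2, with a median of 0.24.

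The direction of single members depends on the reference level. Without TMM, on library size alone, the median of all genes moved from -0.34 to 1.58, and 65 members were higher and 9 lower, against 62.1% and 20.6% of all genes. The median of the members stood 0.44 above the median of all genes on either of these scales, both on all anchors. This agreement follows from the scales, which use the same counts and move the genes nearly alike. Of the 12 lower members with a double positive read pair, 10 had a positive fold change with library size alone. On shared anchors alone, 73 members could be tested, 10 were higher and 2 lower, against 26% and 9.62% of all 9641 genes tested there. The median of the members was 0.32 there, below the 0.44 of all genes. Of the 17 higher members 8 were also higher on shared anchors, while 65.5% of all higher genes were. Of the 20 lower members 1, Ndufa4l2, was also lower there, 10 could not be tested, and 5 of the other 9 had a positive fold change. Of all lower genes 40.7% could be tested on shared anchors, and of these 39.4% were lower and 21.6% had a positive fold change. The plot of both fold changes shows the members tested on both sets of anchors.

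**Figure D1:**
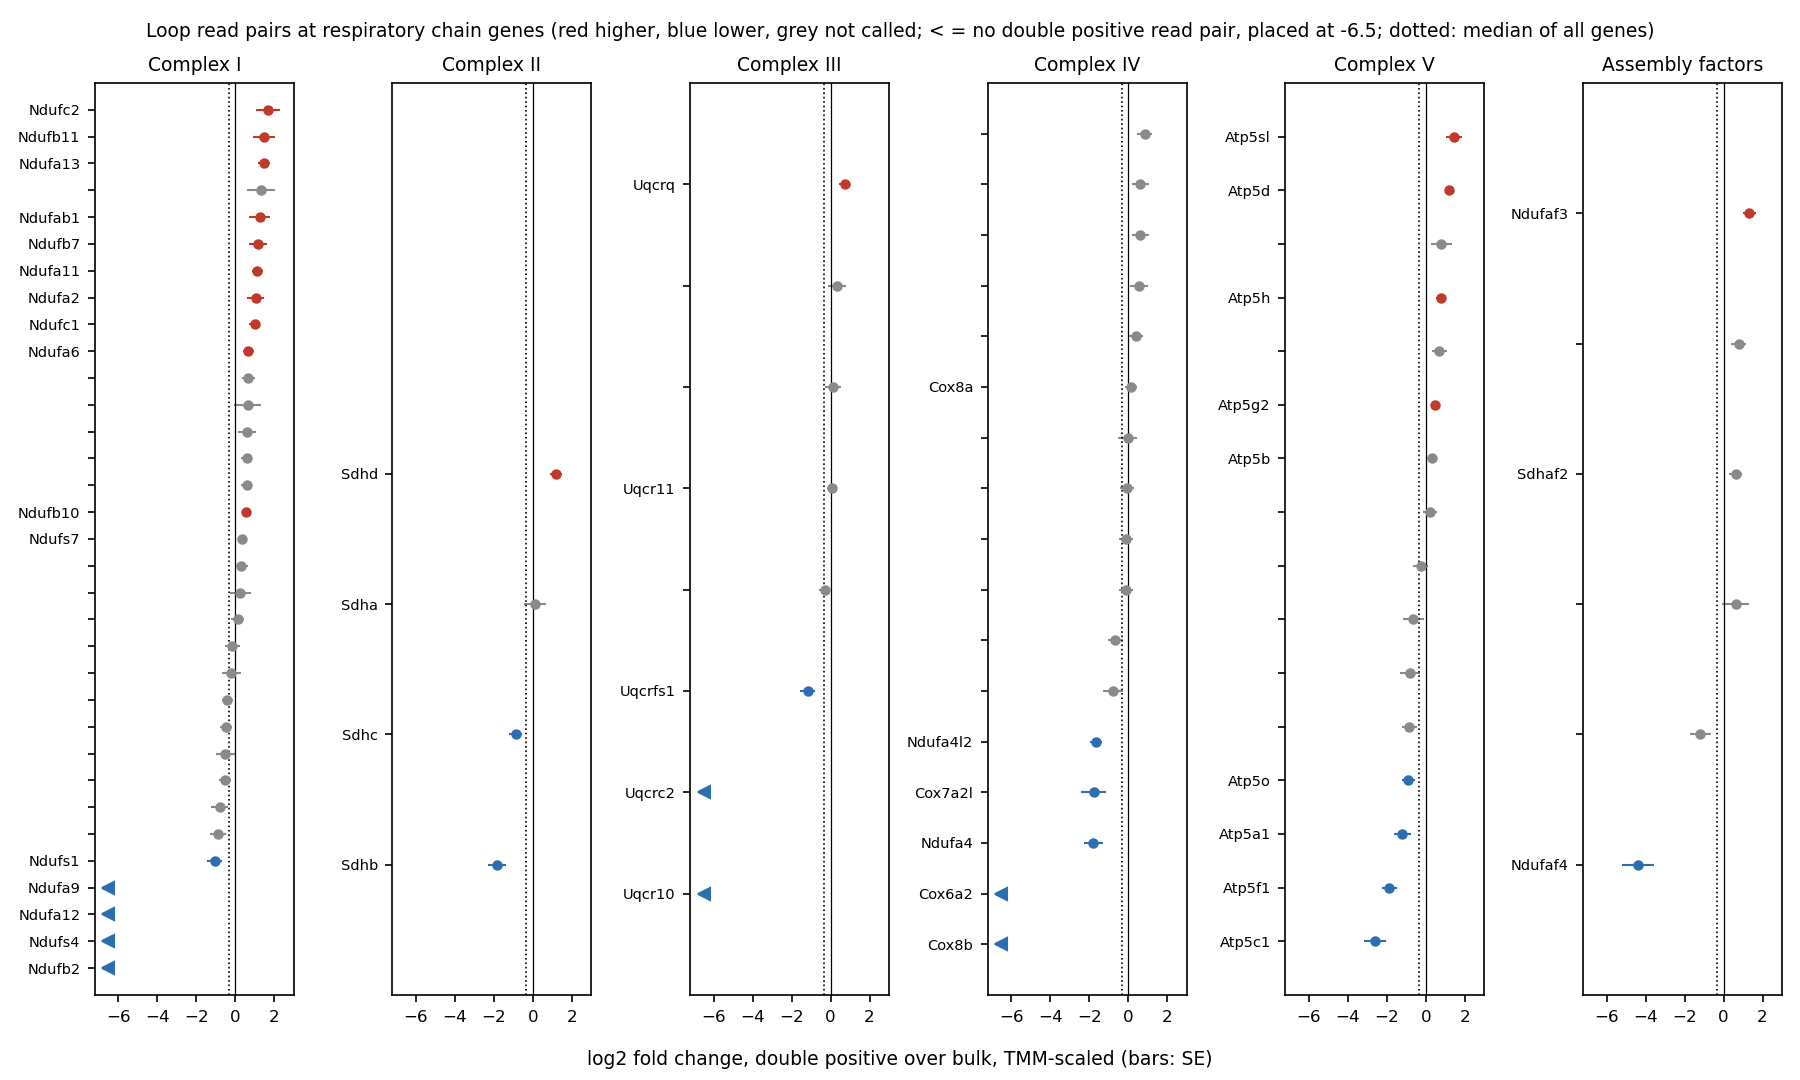
Log2 fold change (double positive over bulk, TMM-scaled) of every tested respiratory chain gene, in 1 panel per complex, with red for higher, blue for lower and grey for not called. Names stand beside called genes and, in each panel, the uncalled gene with the most read pairs. Arrowheads at the left mark the 8 members without a double positive read pair, and the dotted line is the median of all genes, -0.34. Higher and lower members stand in the same panels, and complex IV holds no higher one.

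**Figure D2:**
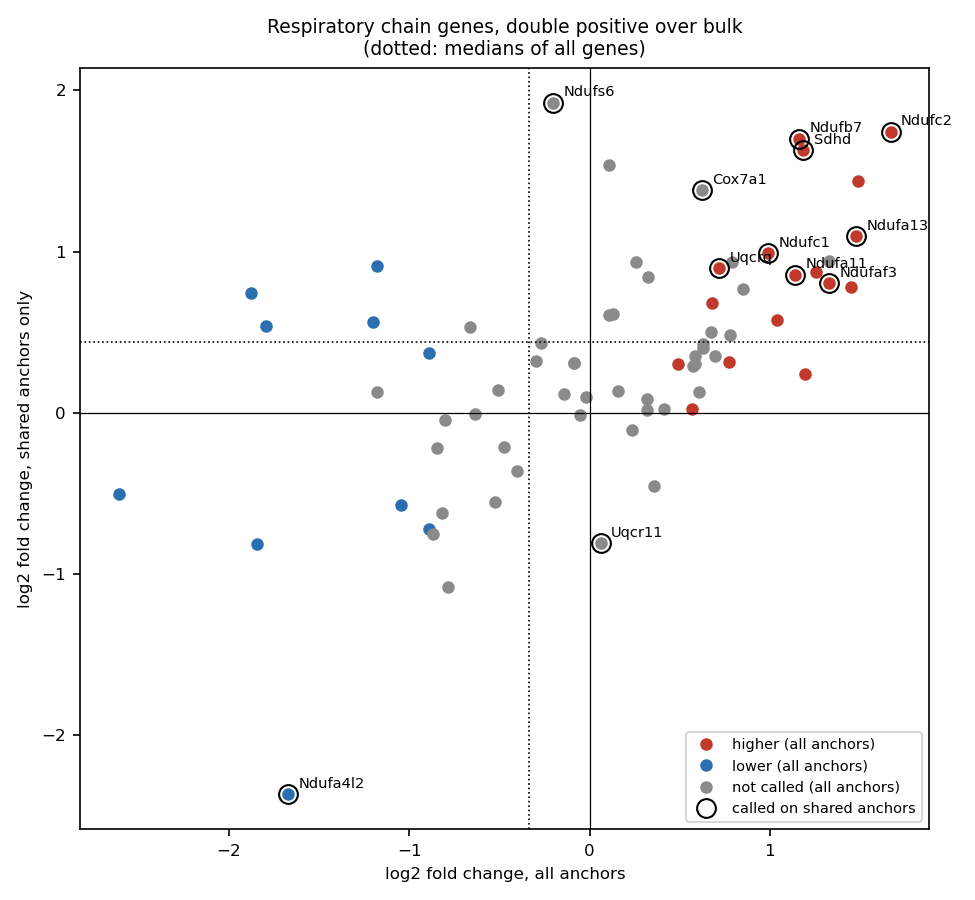
Log2 fold change of the respiratory chain genes on all anchors (x axis) against that on shared anchors only (y axis), coloured by the call on all anchors, with black circles around the members called on shared anchors. Of the 10 blue points 5 lie above 0 on the y axis, and Ndufa4l2 is the blue point that is also called on shared anchors.

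Complex I, which takes electrons from NADH, is the complex with the most tested genes. Of these 34, 10 rose, 5 fell and 19 were not called, with a median of 0.34, beside 19.7% higher and 37.5% lower among all genes. The 10 higher genes were the accessory subunits Ndufa13, Ndufa11, Ndufc1, Ndufc2, Ndufb10, Ndufb11, Ndufa6, Ndufb7, Ndufa2 and the acyl carrier protein gene Ndufab1. On shared anchors 6 of 29 complex I genes tested were higher and 0 lower, beside 26% and 9.62% of all genes. The higher ones were Ndufa13, Ndufa11, Ndufc1, Ndufc2 and Ndufb7 of those 10 and Ndufs6, which was not called on all anchors. The calls of Ndufa2, Ndufa6, Ndufab1, Ndufb10, Ndufb7 and Ndufc2 were each lost when some single library was left out. Among the lower genes were Ndufs4 and Ndufs1, which encode iron-sulfur fraction subunits, along with the accessory subunits Ndufb2, Ndufa12 and Ndufa9.

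Ndufa13, an accessory subunit also known as GRIM-19, starts on chromosome 8 at 72426457 and shares its window with Tssk6. Its lowest, median and highest bulk libraries had 17.9, 57.2 and 151 CPM, and the 5 double positive libraries had 202, 132, 155, 145 and 179.6 CPM. In 3 of 5 the level lay above every bulk library. Ndufa13 had a log2 fold change of 1.48 ± 0.31 (SE), with an adjusted p of 1.09e-05, which was 1.09 on shared anchors (adjusted p = 0.00125).

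At Ndufa11, whose window also holds the start of Vmac on chromosome 17, bulk values were 18.6, 82.0 and 127 CPM (lowest, median, highest). The double positive libraries had 189, 142, 176, 159.7 and 221 CPM, all above the highest bulk library. Read pairs rose by 1.14 ± 0.27 on the log2 scale (adjusted p = 9.79e-05), and by 0.86 on shared anchors (adjusted p = 0.00791). Ndufc1, a small accessory subunit, has no other start in its window, but a joined anchor at it, chr3:51217809-51221881, is also at Naa15. Ndufc1 had 29.7, 67.6 and 140.1 CPM in bulk and 152, 155, 191, 72.6 and 116 CPM in double positive libraries. Here 3 of 5 exceeded the bulk range and the remaining 2 lay inside it, with a log2 fold change of 0.99 ± 0.29 (adjusted p = 0.00158).

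Ndufs4, which is needed for a stable complex I, had 52 bulk read pairs spread over 11 of 12 libraries, with a median of 46.9 CPM, and none in the double positive libraries. Ndufb2, a membrane arm subunit, had 69 and 0, with a bulk range from 0 to 298 CPM. Both were called lower, with adjusted p of 1.46e-07 and 1.85e-06. No fold is given for either, because the files list only loops with a read pair and do not show whether an anchor was missing or had no contact. Ndufs7, an iron-sulfur subunit of the core, was the uncalled complex I gene with the most read pairs (174 bulk and 218 double positive). Its log2 fold change was 0.36 ± 0.24 (adjusted p = 0.187) on all anchors and -0.45 on shared anchors (adjusted p = 0.107).

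The 4 genes of complex II, the succinate dehydrogenase that also serves the citric acid cycle, went different ways. Sdhd rose, Sdhb and Sdhc fell, and Sdha was not called, beside 19.7% higher and 37.5% lower among all genes. Sdhd encodes a membrane anchor subunit and shares its window on chromosome 9 with Timm8b, an import chaperone gene. It had 27.6, 42.4 and 123 CPM in the lowest, median and highest bulk library and 126, 119, 106, 102 and 109 CPM in the double positive ones. The double positive values lay close together, with 1 above the highest bulk value and 4 in the upper part of the bulk range. For Sdhd the log2 fold change was 1.19 ± 0.31 (adjusted p = 0.000399) and 1.63 on shared anchors (adjusted p = 0.000129).

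Sdhb, the iron-sulfur subunit, had 11.2, 70.8 and 196 CPM in bulk and 13.2, 27.4, 42.3, 29.0 and 11.2 CPM in double positive libraries, which lay at the low end of the bulk range. It fell by 1.84 ± 0.48 on the log2 scale (adjusted p = 0.000335), but with library size alone its fold change was 0.07, and on shared anchors it was -0.82 (adjusted p = 0.176). Sdhc, the other membrane anchor, had 90 bulk and 47 double positive read pairs. Its log2 fold change of -0.89 ± 0.34 (adjusted p = 0.0186) turned to 1.04 with library size alone, and the call was lost without double positive replicate 2, 4 or 5. Sdha, the flavoprotein subunit, had 27 read pairs in either group and shares its window with Ccdc127.

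Complex III, the cytochrome bc1 complex, had 8 tested genes, of which Uqcrq rose, Uqcr10, Uqcrc2 and Uqcrfs1 fell and 4 were not called. Among all genes 19.7% rose and 37.5% fell. Uqcrq, a small subunit, shares its window on chromosome 11 with Gdf9, a gene of the oocyte. Bulk libraries had 44.1, 89.6 and 199 CPM (lowest, median, highest) and double positive libraries 182, 169, 162, 152 and 191 CPM. The double positive values stood in the upper part of the bulk range without leaving it. The log2 fold change was 0.72 ± 0.26 (adjusted p = 0.0125), and 0.90 on shared anchors (adjusted p = 0.00619).

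Uqcr10, another small subunit, whose window holds the start of Zmat5, had 63 read pairs in bulk, between 14.8 and 197 CPM in all 12 libraries, and none in double positive cells (adjusted p = 8.06e-08). The core protein gene Uqcrc2 had 27 and 0 (adjusted p = 2.22e-05). Uqcrfs1, the Rieske iron-sulfur protein, had 57.2 ± 22.7 CPM in bulk (SD, n = 12) and 23.7 ± 5.43 CPM in double positive libraries (SD, n = 5), without overlap. Its log2 fold change was -1.18 ± 0.39 (adjusted p = 0.0059), 0.74 with library size alone, and 0.91 on shared anchors (adjusted p = 0.235).

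Uqcr11, the ETS-site promoter printed above, was the uncalled complex III gene with the most read pairs, 221 in bulk and 220 in double positive libraries. Double positive replicates had 225, 215, 106, 225 and 221 CPM, within a bulk range from 58.8 to 375 CPM. The log2 fold change was 0.06 ± 0.26 (adjusted p = 0.854) on all anchors, and Uqcr11 was 1 of the 2 members called lower on shared anchors, with -0.81 (adjusted p = 0.00183).

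Complex IV, which passes electrons to oxygen, had no higher gene: of 17 tested genes 0 rose, 5 fell and 12 were not called by edgeR. At an unadjusted p under 0.05, 1 was higher, and DESeq2 called 1 higher. The median of its genes was -0.09. Among all genes 19.7% were higher and 37.5% lower, with a median of -0.34. With library size alone 11 complex IV genes were higher and 2 lower, beside 62.1% and 20.6% of all genes. On shared anchors 1 of 14 was higher and 1 lower, beside 26% and 9.62% of all genes. Ndufa4, first assigned to complex I by name and now counted as a complex IV subunit, shares its window with Phf14. It had 22.4, 50.4 and 92.8 CPM in bulk and 13.2, 18.3, 28.2, 0 and 15.0 CPM in double positive libraries, of which 4 lay below the lowest bulk library. The log2 fold change of -1.79 ± 0.48 (adjusted p = 0.000503) became 0.09 with library size alone and 0.54 on shared anchors, where only 5 bulk read pairs remained. Cox7a2l, which helps to join complexes III and IV, had 39 bulk and 10 double positive read pairs and a log2 fold change of -1.77 ± 0.64 (adjusted p = 0.0122), or 0.10 with library size alone. Cox8a, the ubiquitous isoform of subunit VIII, had 84 and 91 read pairs and was not called.

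The complex IV isoforms that are restricted to certain tissues were taken as a group of 8, of which 6 could be tested and 3 fell, beside 37.5% of all genes. Ndufa4l2, a paralogue of Ndufa4 that is known to be induced under low oxygen, starts on chromosome 10 at 126951995 and is alone in its window. It had 130, 225 and 341 CPM in the lowest, median and highest bulk library and 76.1, 105, 28.2, 72.6 and 67.3 CPM in the double positive libraries. All 5 lay below every bulk library. Ndufa4l2 had a log2 fold change of -1.67 ± 0.31 (adjusted p = 6.21e-07) and -2.37 on shared anchors (adjusted p = 6.36e-19), while library size alone gave 0.27.

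Of the muscle isoforms, Cox8b had 39 bulk read pairs and Cox6a2 had 37, neither had one in double positive libraries, and both were called lower (adjusted p = 2.15e-06 and 1.06e-05). Cox7a1, another muscle isoform, was not called on all anchors (34 and 52 read pairs, 0.62 ± 0.42) and was higher on shared anchors (1.38, adjusted p = 0.0226). The testis isoform Cox6b2 (82 and 113 read pairs) and the lung isoform Cox4i2 (32 and 17) were not called either. Cox7b2 and Cox8c had 4 and 3 bulk read pairs and none in double positive cells, too few for a test.

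**Figure D3:**
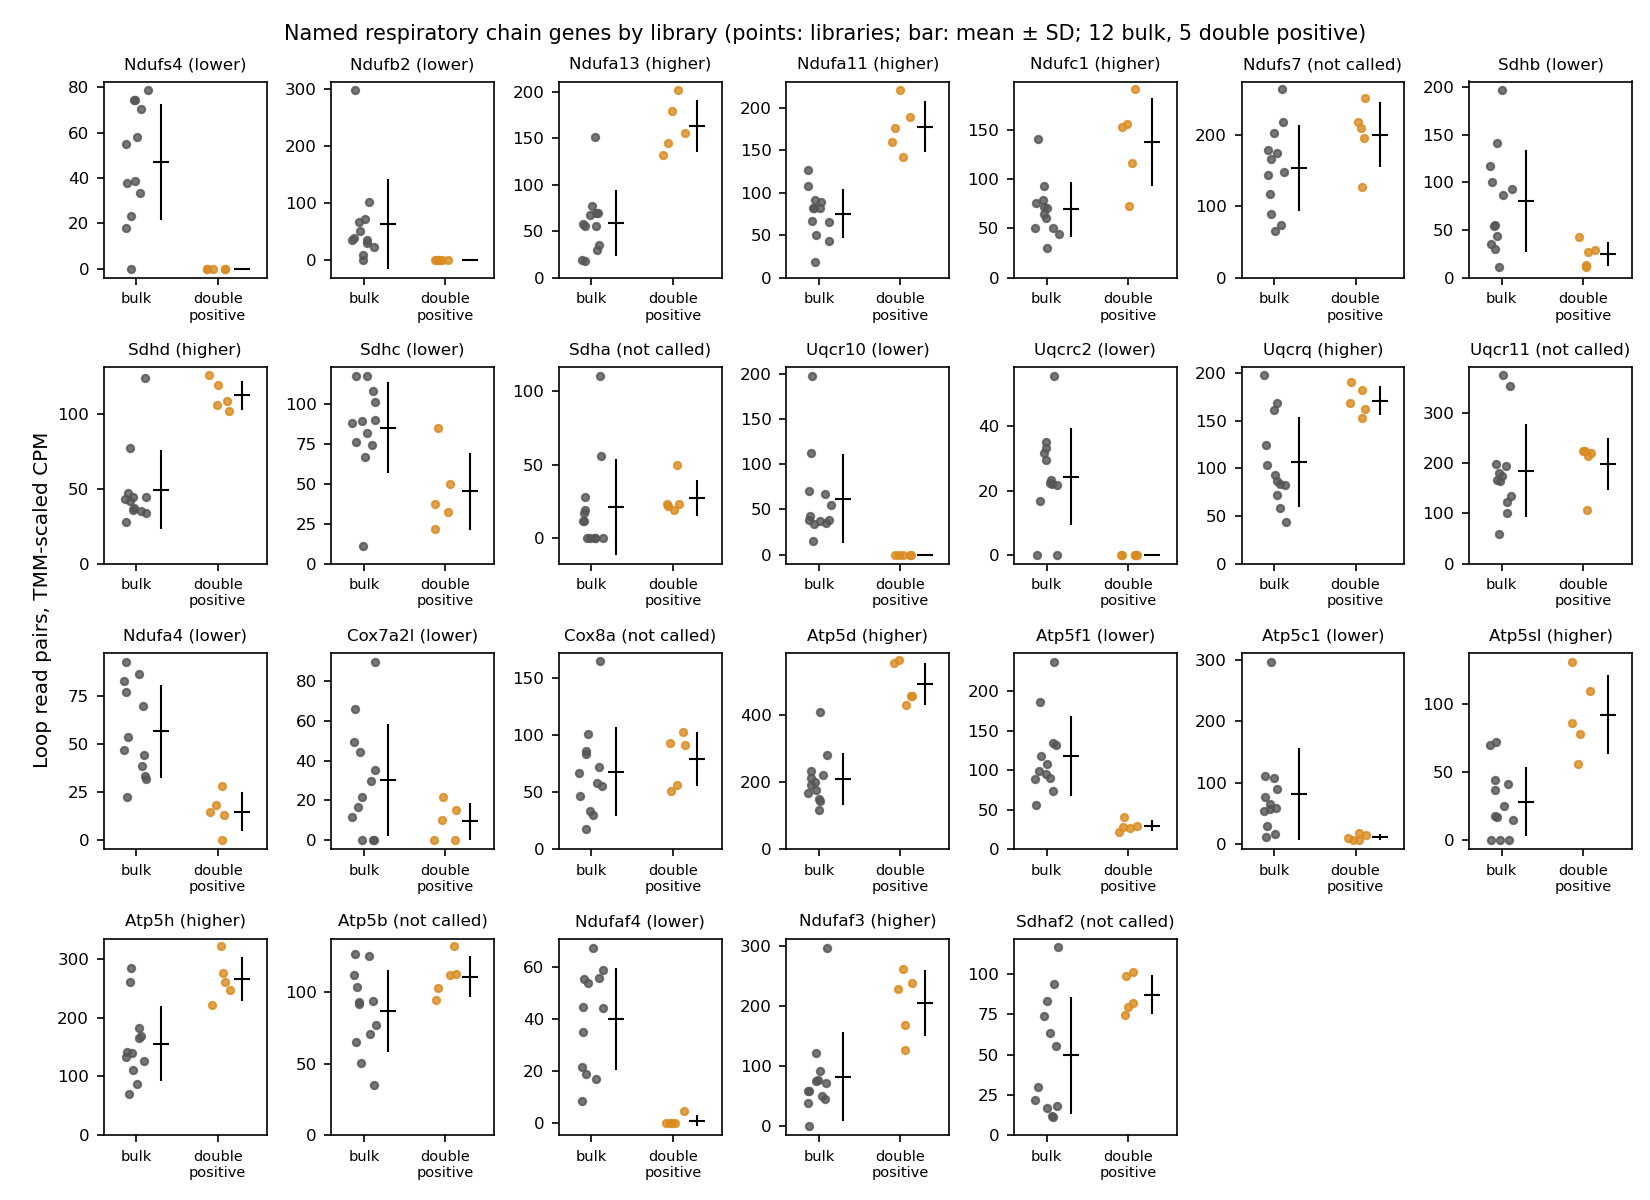
Read pairs at the named genes by library, as TMM-scaled CPM with a y axis of its own in each panel. Points are libraries, the bar is the mean and the whisker the SD (n = 12 bulk, n = 5 double positive). The 5 double positive points of Atp5d and Ndufa11 lie above the bulk points, and those of Atp5f1 and Ndufaf4 lie below them.

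Complex V, the ATP synthase, had 4 higher and 4 lower genes among 16 tested, with a median of -0.02. Among all genes 19.7% were higher and 37.5% lower, with a median of -0.34. On shared anchors 0 of the 16 were called, with a median of 0.31, beside 26% higher and 9.62% lower among all genes. With library size alone 12 were higher and 0 lower, beside 62.1% and 20.6% of all genes. Atp5d, the delta subunit of the catalytic head, had more read pairs than any other member. Its start lies on chromosome 10 at 79601377, in a window shared with Dos. Bulk libraries had 118, 196 and 408 CPM (lowest, median, highest) and double positive libraries 556, 562, 430.5, 457 and 456 CPM. No double positive library reached down to the bulk range. The log2 fold change was 1.2 ± 0.24 (adjusted p = 3.04e-06), but on shared anchors it was 0.24 (adjusted p = 0.375).

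Atp5h, the stalk subunit d, shares its window with Kctd2 and rose by 0.77 ± 0.24 on the log2 scale (adjusted p = 0.00248), from 170 bulk to 283 double positive read pairs. Atp5sl, which is named after a synthase subunit without being one, shares its window with Gm7092 and rose by 1.45 ± 0.41 (adjusted p = 0.00119). On shared anchors neither was called (0.31 and 0.78, adjusted p = 0.285 and 0.0708). Atp5g2, one of the genes for subunit c of the membrane ring, was the fourth higher gene, with 0.49.

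Atp5f1, the stalk subunit b, shares its window with Wdr77 and had 56.1, 104 and 237 CPM in bulk and 29.8, 27.4, 28.2, 21.8 and 41.2 CPM in double positive libraries. The groups did not overlap. Its log2 fold change was -1.88 ± 0.37 (adjusted p = 3.54e-06), but it was 0.04 with library size alone and 0.74 on shared anchors, from 9 bulk and 33 double positive read pairs (adjusted p = 0.285). Atp5c1, the gamma subunit that turns inside the head, shares its window with Kin and fell by 2.61 ± 0.56 (adjusted p = 1.73e-05), from 85 to 13 read pairs. The catalytic beta subunit Atp5b was not called, with 99 and 119 read pairs and a log2 fold change of 0.32 ± 0.26 (adjusted p = 0.285). The alpha subunit Atp5a1 fell by 1.2 (adjusted p = 0.0088), with 0.56 on shared anchors (adjusted p = 0.457).

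The 6 assembly factors gave 1 higher, 1 lower and 4 uncalled genes, beside 19.7% higher and 37.5% lower among all genes. Ndufaf3, which joins early complex I intermediates, shares its window with Dalrd3 and had 0, 65.2 and 297 CPM in bulk and 228, 238, 127, 261 and 168 CPM in double positive libraries. The double positive values stood high but within the bulk range, which a single library stretched. Ndufaf3 rose by 1.33 ± 0.34 on the log2 scale (adjusted p = 0.000248), and by 0.81 on shared anchors (adjusted p = 0.00873). Ndufaf4, the NRF1-site promoter printed above, had 8.32, 44.3 and 67.3 CPM in bulk. Among double positive libraries it had 1 read pair, in replicate 2 (4.57 CPM), and all 5 lay below the bulk range. It fell by 4.38 ± 0.84 on the log2 scale (adjusted p = 1.73e-06), and from these counts the pooled level was 41.0-fold lower, with an exact 95% counting interval from 6.97 to 1659. Sdhaf2, which attaches the flavin cofactor to Sdha, shares its window with Cpsf7 and was not called (63 and 90 read pairs, 0.63 ± 0.34, adjusted p = 0.101).

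The 9 members too sparse for a test included Ndufa1 with 4 bulk and 9 double positive read pairs. Ndufa8, Ndufs5, Cox6c, Cox7b2, Cox7c, Cox8c and Atp5s had between 3 and 13 bulk and no double positive read pairs, and Atp5l-ps1 had none at all. Another start lay in the window of 11 of the 17 higher and 7 of the 20 lower members, a difference that was not tested, beside 36.1% of all higher and 17.6% of all lower genes. Among the 53 members with no other start in their window, 47 were tested, 6 rose and 13 fell. Anchors at these members can still reach the window of another gene, as at Ndufc1. Of all genes, with or without another start, 19.7% rose and 37.5% fell. Of the 94 members 4, among them Cox4i2 and Atp5e, lie in the distal parts of chromosomes 1 and 2, which with the start of chromosome 11 held between 12.8% and 21.4% of bulk but between 5.28% and 5.78% of double positive read pairs. Without these regions 81 members were tested, 15 rose and 22 fell, beside 19.1% and 35% of all genes.

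The partners of the members' loops differed between the groups. The other end of a loop was classed as the promoter of another gene (an anchor within 5 kb of its TSS), as distal (an anchor at no promoter) or as the gene's own window. Another promoter was the partner of 48.6% ± 3.11 of the bulk read pairs at members (SD, n = 12, from 44.4% to 54.4%). In double positive libraries it was 83.6% ± 1.96 (SD, n = 5, from 81.0% to 86.0%), without overlap. Over all protein-coding genes the same shares were 19.5% ± 1.49 and 59.9% ± 0.187, so the members had the larger share in both groups. On shared anchors the bulk share at members was 85.5% ± 2.33, from 81.0% to 90.0%, which overlapped the double positive values, and that of all genes was 50.7% ± 1.18.

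Gene by gene, read pairs to promoter partners rose for 47 and fell for 4 of the 74 members tested, beside 57.7% and 5.46% of all genes. The median was 1.07 for members and 1.13 for all genes. Read pairs to distal partners rose for 0 and fell for 47 of the 62 members tested, beside 2.73% and 70.4% of all genes, with medians of -2.0 and -2.05. No distal rise on the TMM scale had an unadjusted p under 0.05 by edgeR, and DESeq2 called 0. With library size alone 12 members were higher and 12 lower for distal partners, with a median of -0.19. Of all 10133 genes 2355 were higher and 3077 lower in that setting, with a median of -0.22. For promoter partners 69 members were then higher and 3 lower. On shared anchors 9 of 70 members tested were higher and 2 lower for promoter partners, beside 25.6% and 5.55% of all genes. For distal partners 3 of 25 were higher and 1 lower there, beside 16.9% and 16.8%.

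Single members show the split behind their totals. Atp5f1 had 41 bulk and 25 double positive read pairs to promoters (-0.69, adjusted p = 0.146) but 82 and 8 to distal anchors (-3.18, adjusted p = 7.29e-09). Atp5l, the subunit g gene, was not called as a whole, yet its distal read pairs fell from 84 to 3 (adjusted p = 2.66e-09), while 46 and 63 joined promoters. At Atp5d 225 of 249 bulk and 524 of 537 double positive read pairs ended at promoters, and these rose by 1.32 ± 0.23 (adjusted p = 7.21e-08). The 4 members whose promoter contacts fell were Ndufa4l2, Cox8b, Cox6a2 and Uqcr10. Of these Ndufa4l2 kept 62 double positive read pairs to promoters against 185 in bulk, a log2 fold change of -1.49 ± 0.30 (adjusted p = 2.65e-06).

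**Figure D4:**
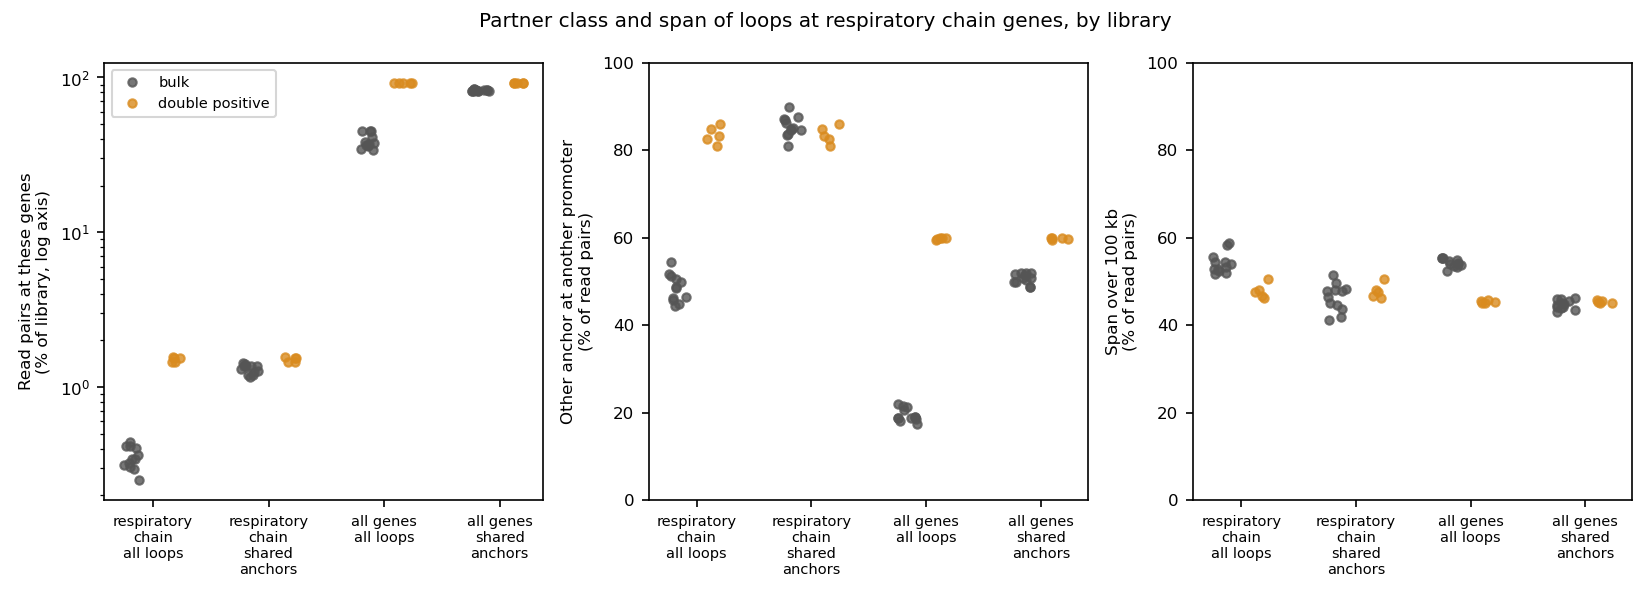
Percent of a library's read pairs, percent with a promoter partner and percent spanning over 100 kb, for members and for all protein-coding genes, on all loops and on shared anchors. Each point is a library (12 bulk, 5 double positive), and the axis of the first panel is logarithmic. The promoter share of members lies between 44.4% and 54.4% in bulk and between 81.0% and 86.0% in double positive libraries on all loops, and the groups overlap on shared anchors.

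The span of a loop is the distance between the middles of its anchors. The mean over libraries of the median span at members was 126430 ± 18015 bp in bulk (SD, n = 12) and 93164 ± 5532 bp in double positive libraries (SD, n = 5), and the groups did not overlap. The median span over all protein-coding genes also fell without overlap, from 123809 ± 5739 bp to 81683 ± 988 bp. Over 100 kb lay 54.3% ± 2.31 of bulk and 47.8% ± 1.64 of double positive read pairs at members, without overlap between 51.8% and 50.5%. For all genes the shares were 54.3% ± 0.920 and 45.4% ± 0.315. On shared anchors 46.4% ± 3.13 of bulk read pairs at members spanned over 100 kb, which overlapped the double positive libraries.

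Loops of up to 100 kb were higher for 20 and lower for 10 of 70 members tested, beside 25% and 25.6% of all genes. Longer loops were higher for 9 and lower for 18 of 76, beside 14.9% and 30.6%. With library size alone the shorter loops were higher for 57 and lower for 5 members, beside 6464 and 1013 of all 9380 genes. The longer ones were then higher for 55 and lower for 8, beside 6863 and 1464 of all 10822 genes. On shared anchors the shorter loops were higher for 7 and lower for 3 of 55 members, beside 22.8% and 9.24% of all genes, and the longer ones for 2 and 1 of 58, beside 17.3% and 6.44%. Atp5f1 had 42 bulk and 0 double positive read pairs in the shorter loops, and 81 and 33 in the longer ones. Ndufa13, in contrast, rose more in short loops (1.87 ± 0.35, adjusted p = 9.30e-07) than in long ones (0.96 ± 0.38, adjusted p = 0.0263), a difference between spans that was not tested. Thinned to 50508 read pairs per library, members in bulk touched 171.7 ± 28.5 different partner anchors with between 134 and 227 read pairs (SD, n = 12). In double positive libraries they touched 476.4 ± 23.1 with between 726 and 812 read pairs (SD, n = 5).

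Single loops at members mostly had both anchors at promoters. Of 5369 loops tested over the genome 69 touched a member, of which 28 were higher, 3 lower and 38 not called, beside 38.5% and 22.3% of all loops. DESeq2 called 18 loops at members higher, and with library size alone more were higher and 1 was lower. Both anchors lay at promoters in 62 of the 69 (89.9%), which includes loops with both anchors at the same gene, as at Atp5h, Ndufs8 and Ndufc1. A loop at a member has a promoter anchor by definition, and among all tested loops with at least 1 promoter anchor both were promoters in 60.4%. All 69 lay on shared anchors. Their spans ran from 6450 to 215284 bp, with a median of 19812 bp. Of the members 35 had a tested loop and 19 a higher one. Fewer loops could be tested with a library left out: 12 of 43 were higher without double positive replicate 1, 16 of 48 without replicate 5, 18 of 52 without replicate 2 and 17 of 65 without bulk replicate 4. Without bulk replicate 3, 1 of 63 was lower.

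The 3 lower loops all started at the Ndufa4l2 anchor, chr10:126948323-126951749. The first led to Nxph4, a neurexophilin gene, at chr10:126969973-126977849. It had a read pair in all 12 bulk libraries, with 17, 45.9 and 111 CPM (lowest, median, highest), and in double positive libraries 0, 8.01, 0, 0 and 3.28 CPM. Every double positive library lay below every bulk library, and the log2 fold change was -4.13 ± 0.57 (adjusted p = 2.88e-11). From 57 and 3 read pairs the pooled level was 24.6-fold lower, with a counting interval from 7.99 to 123. The other lower loops led to 2 anchors at Shmt2, the mitochondrial serine hydroxymethyltransferase gene, at chr10:126957195-126961193 and chr10:126963127-126966120. They had 25 and 19 bulk read pairs and 2 each in double positive libraries, with log2 fold changes of -3.36 ± 0.70 and -3.00 ± 0.70 (adjusted p = 7.54e-06 and 7.83e-05). The counting intervals of their pooled ratios, 16.2-fold and 12.3-fold lower, ran from 4.03 to 141 and from 2.96 to 109. The loops with 57 and 25 bulk read pairs met the minimum for a test through bulk alone, where they are high.

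The higher loop with the smallest p joined the window of Uqcrq and Gdf9, chr11:53243306-53245828, to the neighbouring gene Leap2, which encodes a secreted liver peptide, at chr11:53234858-53237846. It had 49.9, 60.0, 41.2, 56.4 and 52.4 CPM in double positive libraries, and in bulk a read pair in 3 of 12 libraries, with at most 24.8 CPM. All double positive libraries lay above it, and the log2 fold change was 3.4 ± 0.56 (adjusted p = 1.65e-08). Atp5d was joined over 26946.5 bp to Stk11, the LKB1 kinase gene, from chr10:79603405-79606368, an anchor also at Dos and Midn, to chr10:79576284-79579596. This loop had 1 bulk and 39 double positive read pairs, the latter in all 5 libraries (4.00 ± 0.74, adjusted p = 3.74e-07), a pooled ratio of 30.2 with a counting interval from 5.11 to 1222. Cox5a, the subunit Va gene that shows no call as a gene, was joined to Rpp25 (chr9:57367832-57370417 to chr9:57350425-57354706) by 1 and 28 read pairs (3.53 ± 0.78, adjusted p = 2.31e-05), a pooled ratio of 21.7 with an interval from 3.58 to 886.

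**Figure D5:**
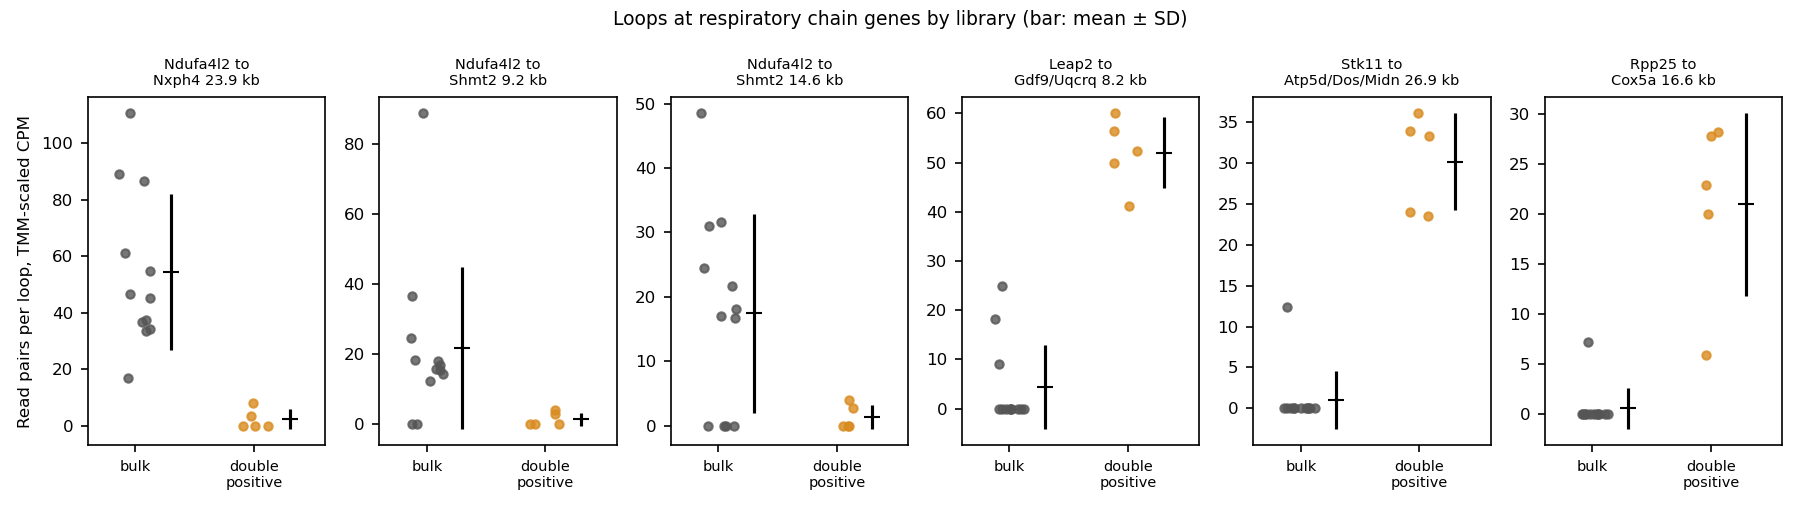
Read pairs of the 6 named loops by library, as TMM-scaled CPM, with points for libraries and the mean ± SD (n = 12 bulk, n = 5 double positive). In the 3 loops of Ndufa4l2 the double positive libraries stand at or below 8.01 CPM, and in bulk the loop of Uqcrq has a read pair in 3 of 12 libraries and those of Atp5d and Cox5a in 1 each.

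Members also touched each other. Loops joined 9 pairs of them, each with few read pairs: Atp5d and Ndufs7 had 4 bulk and 7 double positive read pairs, Ndufs8 and Ndufv1 had 1 and 5, and Atp5d and Uqcr11 had 0 and 3. With so few read pairs, differences between the groups were not tested for these pairs.

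The genes around the respiratory chain were read from the same fit. Of 29 other tested genes of the chain (cytochrome c, cytochrome c1 and assembly factors outside the naming rule) 9 rose and 10 fell, with a median of -0.05. These counts and those of the lists that follow stand beside 19.7% higher and 37.5% lower among all genes. Cyc1, the cytochrome c1 subunit of complex III, rose by 1.10 ± 0.35 (adjusted p = 0.00435) and Cox17, a copper chaperone of complex IV, by 0.87 ± 0.35 (adjusted p = 0.0232). On shared anchors Cox17 was called (0.96, adjusted p = 0.0208) and Cyc1 was not (0.32, adjusted p = 0.434). The genes of the mitochondrial ribosome (68 tested, 20 higher, 16 lower, median 0.05) and of the cytosolic ribosome (91 tested, 23 higher, 18 lower, median 0.03) had both higher and lower members. On shared anchors 14 of 58 and 22 of 80 of them were higher, and 2 of each list lower, beside 26% and 9.62% of all genes.

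Regulators of these genes were split as well, with 3 higher and 5 lower of 11 and a median of -0.74. On shared anchors 3 of 9 were higher and 1 lower, with a median of 0.49, beside 26% and 9.62% of all genes. With library size alone the median was 1.14, and that of all genes 1.58. Nrf1, which encodes the factor of the NRF1 site, had 40 bulk and 0 double positive read pairs (adjusted p = 2.78e-06). Tfb1m, the mitochondrial rRNA methyltransferase gene, had 71 and 0. Gabpb2 and Gabpb1 encode partner subunits of the ETS factor GABPA. Gabpb2 rose by 1.81 ± 0.36 (adjusted p = 4.90e-06), and Gabpb1 fell by 0.90 ± 0.35 (adjusted p = 0.0217). Esrra, an estrogen-related receptor, and Polrmt, the mitochondrial RNA polymerase, rose by 1.22 ± 0.31 and 1.53 ± 0.39, while Yy1 fell by 0.94 ± 0.27. With library size alone the fold changes of Yy1 and Gabpb1 were 1.00 and 1.02, and on shared anchors neither was called (0.27 and 0.49).

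Among the 12 tested genes of the citric acid cycle 4 rose and 3 fell. Cs, the citrate synthase, went from 91 bulk to 271 double positive read pairs (1.58 ± 0.27, adjusted p = 8.97e-08). Fh1, the fumarase, had 89 and 0. Glycolysis had a median of 0.94, with 8 higher and 1 lower of 14 tested, beside 19.7% and 37.5% of all genes. On shared anchors 7 of its 14 were higher and 0 lower, beside 26% and 9.62% of all genes. There its median was 0.52, that of the citric acid cycle 0.78 and that of all genes 0.44. Ldha, lactate dehydrogenase A, rose by 2.01 ± 0.42 (adjusted p = 1.15e-05), and Aldoa, an aldolase, by 1.29 ± 0.25 (adjusted p = 2.16e-06). Eno1, an enolase, fell by 2.54 ± 0.38 (adjusted p = 9.37e-10), with -0.75 on shared anchors (adjusted p = 0.124).

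Markers of cell types moved with the same contrast. The sorting markers Epcam (13 and 25 read pairs) and Cd38 (36 and 51) were not called on all anchors, and on shared anchors Cd38 was higher (1.87, adjusted p = 0.00443). The labels name the cells as embryonic stem cells. Of 6 pluripotency markers Nanog (14 and 0 read pairs) and Esrrb (32 and 0) had none in double positive libraries, and Klf4 and Tdgf1 rose. The summed level of this list was 164 CPM in the median bulk and 212 CPM in the median double positive library. Of the extraembryonic endoderm list 4 of 9 tested genes rose and 0 fell: Gata4 (2.65 ± 0.56), Cubn, its most abundant gene in bulk (1.05 ± 0.28), and Col4a1 and Col4a2 (2.11 ± 0.33). The last pair share a window and all their read pairs, the most abundant of the list in double positive libraries. With that window taken once, the sum ran from 241 to 596 CPM in bulk and from 579 to 804 CPM in double positive libraries, with Dab2 at 0 in the latter. Of the 5 uncalled genes of this list, Sox17 (-0.74), Lama1 (-0.59) and Gata6 (-0.16) had negative log2 fold changes. Sox7 (0.45) and Amn (0.46) had positive ones. On shared anchors 6 of the 9 were higher, among them Sox17 (4.01) and Lama1 (1.68), and 0 were lower. Of all genes 26% were higher and 9.62% lower there.

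Neural markers fell for 3 of 4 tested, led by Nes (-1.75 ± 0.35), the most abundant, with a sum from 216 to 871 CPM in bulk, from 109 to 120 CPM in double positive libraries, and Sox3 at 0 in both groups. With library size alone Nes was at 0.23 and Pax6, another of the 3, at 0.05, while on shared anchors both were lower. Of 5 mesenchyme markers Col3a1, Pdgfra and Twist1 were at 0 in double positive libraries and Col1a1 was the most abundant there (Pdgfra in bulk). All 5 blood and endothelium markers were at 0 in the double positive libraries, with Hbb-bh1 at 0 in bulk as well. The part of these shifts in cell composition in the values of the respiratory chain genes was not tested.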

How the data were processed

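H3K27ac HiChIP loops of 12 bulk and 5 double positive libraries were analysed. Per the labels and the study's methods, the authors mapped reads to mm9 with HiC-Pro and called anchors and loops with hichipper. They deposited, for each library, the anchor pairs and the count of read pairs that join them, without normalization. A loop appears in a file once a read pair joins its anchors. Read filtering, mapping and peak calling are part of these counts and were not repeated, and PCR copies are not independent, so the depth of a gene covers counting error only. The files held 0 columns that could not be mapped to a sample.

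Gene starts came from the GENCODE annotation of mm9. Read pairs were summed per gene over loops with an anchor within 5 kb of its start, and per loop after merging anchors that overlap between libraries. The fits covered all protein-coding genes, or all loops, that had 20 or more read pairs and were seen in 5 or more libraries. They used R 4.3.3 with edgeR 4.0.16 (TMM factors, from 0.521 to 0.786 in bulk and from 2.55 to 2.78 in double positive libraries, and the quasi-likelihood test with group as the only term). Where a group had 1 to 3 read pairs, the pooled ratio has an exact (Clopper-Pearson) interval, which covers counting error only. SE is the absolute log2 fold change divided by the normal quantile of the p-value. Shares per library were computed in Python 3.11.15 with pandas 2.3.3, and have no test. Splits by partner or span used the factors of the gene fit. The fits were tested on simulated data. In a chi-square test all 66 pairs of bulk and 10 pairs of double positive libraries differed by more than sampling noise (largest p 1.64e-13 and 5.81e-06), so none was treated as a second deposit of the same library. This does not show that they are biological replicates.

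The genes named were, for each complex and for the assembly factors, up to 3 higher and 2 lower members with the smallest p and the uncalled member with the most read pairs, beside the restricted isoforms and the 3 loops with the smallest p in each direction. Uqcrfs1, Atp5l and members named only in lists of calls or of untested genes were added after their values were seen, as were the examples named from other gene lists. Promoter sequences are those of named members with a motif upstream of both the RefSeq and the GENCODE start. The members, lists and markers were chosen with earlier results of these data known. Sox1, of the neural marker list, had no match in the annotation and was not analysed here. A few further results are not reported here.

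Alternatives were DESeq2 1.42.0, scaling by library size only, 50 read pairs as the minimum, all features unfiltered, a window of 2.5 kb, libraries thinned to 50508 read pairs, shared anchors, no reads from 3 regions that differ between groups, the replicate number as a block, and each library left out in turn. The labels do not say that the replicate numbers pair the libraries.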

Additional observations from a re-analysis of the deposited data

Results flagged for a closer look

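In 37 groups of libraries tested, 3 members had a double positive library far from the other 4, by Dixon's criterion, which chance meets in about 1 of 20 groups. Sdha had its highest level, 49.4 CPM, in double positive replicate 3, and the nearest library had 23.2 CPM. Without that library its log2 fold change went from 0.11 to -0.15, uncalled in both fits. Uqcr11 had its lowest level, 106 CPM, in the same library, and the nearest had 215 CPM. Ndufaf4 had 4.57 CPM in double positive replicate 2, a single read pair, and 0 in the other 4.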

How the results depend on the processing

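DESeq2 kept the 17 higher and 20 lower calls of the members, and 10 and 18 of them were kept in every fit that left out a library. The higher calls lost in at least 1 such fit were Atp5g2, Ndufa2, Ndufa6, Ndufab1, Ndufb10, Ndufb7 and Ndufc2, and the lower ones Atp5o and Sdhc. Leaving out libraries gave 12 to 19 higher and 18 to 23 lower genes, 12 to 26 higher and 1 to 3 lower loops, 39 to 46 higher and 3 to 4 lower genes by promoter partner, 0 higher and 42 to 47 lower by distal partner, 15 to 20 higher and 9 to 10 lower for spans up to 100 kb, and 7 to 10 higher and 15 to 19 lower beyond. Sdhaf2 was called (0.77) without bulk replicate 1.

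With library size alone 65 genes were higher and 9 lower, 66 loops higher and 1 lower, 12 genes higher and 12 lower by distal partner, 57 higher and 5 lower for spans up to 100 kb, and 55 higher and 8 lower beyond. In that setting 10 of the 20 lower members turned positive, among them Sdhb (0.065), Sdhc (1.04), Ndufa4 (0.094), Cox7a2l (0.10), Atp5f1 (0.041) and Ndufa4l2 (0.27), as did the uncalled Cox4i2 (1.09). This follows from the scale, since the median of all genes is then 1.58.

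On shared anchors, which leave out by construction genes without double positive read pairs, 10 genes were higher and 2 lower, 9 and 2 by promoter partner, 3 and 1 by distal partner, 7 and 3 for spans up to 100 kb, and 2 and 1 beyond. The bulk shares became 85.5% with a promoter partner, 46.4% over 100 kb and 1.31% of the library. The fold changes that changed sign included those of Ndufs7 (-0.45), Uqcr11 (-0.81), Ndufa4 (0.54) and Atp5f1 (0.74).

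A minimum of 50 read pairs, which tests fewer features, gave 3 higher loops, 29 higher and 1 lower genes by promoter partner, 23 lower by distal partner, 13 higher and 4 lower for spans up to 100 kb, and 7 lower beyond. No filter gave 9 lower by promoter partner and 20 lower for spans up to 100 kb, and was not run for loops. Thinned libraries gave 9 lower genes, 11 higher and 1 lower loops, 1 lower by promoter partner, 16 lower by distal partner, and 4 and 5 lower for the shorter and longer spans. DESeq2 called 18 loops higher, and a window of 2.5 kb gave 2 lower by promoter partner, promoter shares of 41.2% in bulk and 79.7% in double positive libraries, and 1.37% of the double positive read pairs at members. The cause of these differences was not tested. The log2 fold change of Uqcr11, 0.06 as reported, was -0.038 with 50 read pairs, -0.034 with 2.5 kb, -0.0036 without the 3 regions and between -0.035 (without bulk replicate 9) and 0.21 with a library left out. The log2 fold change of Sdha, uncalled, ranged from -0.15 without double positive replicate 3 to 0.64 without bulk replicate 7.

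Deviations of same-numbered libraries had correlations from -0.0132 to 0.00879. With few read pairs per gene and library such correlations can stay small for paired libraries too, so they do not show whether the numbers pair them. With the replicate block, which can use replicates 1 to 5 only, 10 genes were higher and 11 lower of 79, against 13 and 13 in the same libraries without it. The block gave 5 higher loops, 30 higher and 1 lower by promoter partner, 29 lower by distal partner, 9 higher and 5 lower for spans up to 100 kb, and 4 higher and 7 lower beyond, with Uqcr11 at -0.070 and Cox8a at -0.036.

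Leaving the omitted libraries aside, these settings kept the direction and call of a named gene 225 times, lost a call 11 times, gained one 11 times and changed the sign 16 times. With a median of 55 bulk and 47 double positive read pairs per tested member, small differences are not detectable, and single loops less so.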
